A study of Mus musculus with 6 samples.

Results

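The 39 Hox genes of the mouse were followed through the differentiation of brown preadipocytes with and without a pretreatment by fibroblast growth factor 8 (FGF8). They are the symbols in the count data that read Hoxa, Hoxb, Hoxc or Hoxd followed by a number only, out of 26264 symbols listed, and 6 antisense or opposite-strand symbols were left out. The data are bulk RNA sequencing of 6 libraries, covering 2 treatments and 3 days with 1 library per condition. All libraries came from 1 immortalized line of wild-type Bl6N mouse cells, the stromal vascular fraction of interscapular brown fat carrying SV40 large T antigen from a retrovirus. Cells received FGF8 (5.5 nM) for 48 h or were left untreated (vehicle in the study's methods), and were harvested at once (day 0) or after induction of fat cell formation (day 3 and day 9 after the pretreatment). The labels name the later time points D3 and D7 without saying from when they count. They are taken here as days 3 and 9, since the study's results section places the last harvest after 2 days of induction and 7 of differentiation medium. The study's methods give 6 days of differentiation instead, and D7 as day 9 is a reading of the labels. The cells of days 3 and 9, but not those of day 0, had received insulin, T3, IBMX, dexamethasone, indomethacin and rosiglitazone, so day and cocktail cannot be told apart. The sources used here do not say whether the line is 1 clone or how many animals it came from, and the growth protocol in the labels describes primary white preadipocytes, against the titles and the series text.

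Hox genes encode homeodomain transcription factors that give cells their position along the head-to-tail axis of the embryo. They lie in clusters in which the order of the genes follows the order of the body regions where they are switched on, from the anterior groups to the posterior groups, and genes with the same number in different clusters are paralogs. Adult mesenchymal cells, fat cell precursors among them, keep a Hox pattern that reflects the depot they were taken from, and Polycomb and Trithorax proteins hold it in place. In adipose tissue, Hoxa5 has been tied to fat cell formation, and Hoxc8 and Hoxc10 to white rather than brown depots.

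In GRCm39 the HoxA cluster holds 11 of the 39 genes on chromosome 6, the HoxB cluster 10 on chromosome 11 from 96085106 to 96259082, the HoxC cluster 9 on chromosome 15 from 102829538 to 102945278 and the HoxD cluster 9 on chromosome 2 from 74498654 to 74595486. The libraries held 16403254 to 38551551 counts, of which 6175 to 16295 fell on Hox genes, or 0.0328% to 0.0428% of the total. Values are counts divided by a size factor per library (normalized counts), and within 1 pair of libraries changes are given on the log2(normalized count + 1) scale. Between 30 and 35 of the 39 genes had at least 1 count in a library. The 29 genes that averaged 20 or more normalized counts are described by their values, and the same 29 passed the count filter of the statistical test. Hoxb13, Hoxc13 and Hoxa9 were under 10 normalized counts in both day 0 libraries and passed through the later days. Against day 0 they could therefore be called upward only, and their calls are description, not support. With 1 library per condition, no difference between a pair of libraries has a replicate check. The test of the days therefore takes the untreated and the FGF8 culture as the repeats of a day, and its p-values measure only the spread between these libraries.

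Before differentiation, transcripts of the central groups and of 1 posterior gene, Hoxb9, which patterns the thoracic region, were abundant. Hoxb9 had 2472 normalized counts without and 2595 with FGF8 at day 0. Per kb of exon, the scale on which genes can be set side by side, it held 27.7% of the summed Hox level without and 29.3% with FGF8. Hoxd8 followed with 11.6% and 15.1%, and Hoxb8, Hoxb7, Hoxa2, Hoxc4 and Hoxa6 came next with at most 7.55% each. Hoxd9, the second posterior gene, was at 41.4 normalized counts per kb without and 74.5 with FGF8. The anterior Hoxb3 was above it, at 119 and 106. Some HoxA transcripts that were abundant later were low at this stage, with Hoxa4 at 38.2 and 33.3 normalized counts and Hoxa9 at 5.88 and 7.68. The plot of 28 transcripts in the 6 libraries shows both treatments of day 0 side by side for each gene.

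**Figure D1:**
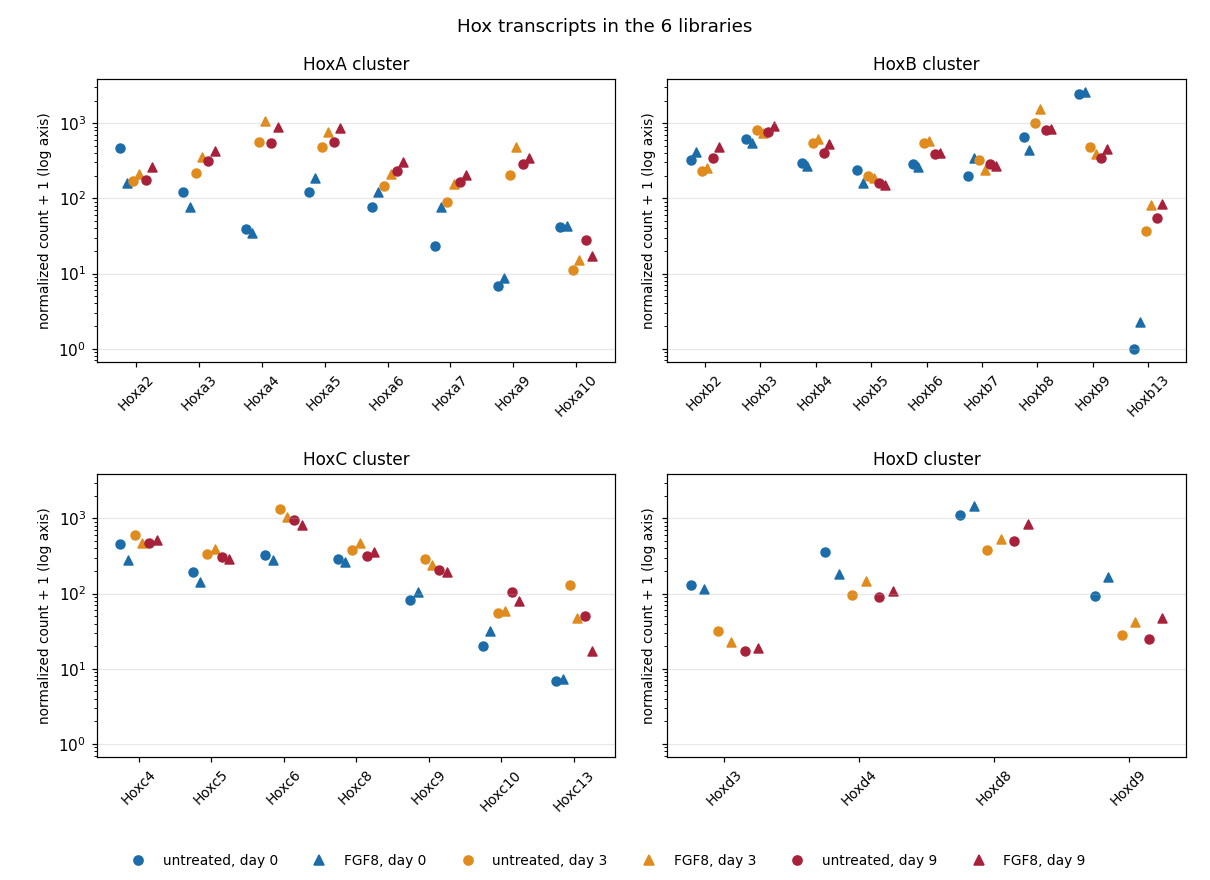
Normalized count plus 1 (log axis) of 28 described Hox genes in the 6 libraries, ordered by paralog group within each cluster, with circles for untreated and triangles for FGF8-pretreated cells and 1 colour per day. For Hoxa4, Hoxa9 and Hoxb13 both day 0 points lie under the 4 later ones, and for Hoxb9 and the 4 HoxD genes they lie above them. The share of all genes separated in this way was not counted.

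The question of the days was how the Hox pattern of preadipocytes compared with that of the adipocytes derived from them. From day 0 to day 3, 20 of the 29 tested Hox genes passed the test (edgeR quasi-likelihood, adjusted p under 0.05 over 14569 genes), where 46% of all genes did. Of these, 15 were higher, against 26.2% of all genes, and 5 were lower, against 19.8%. From day 0 to day 9, 18 Hox genes passed the test, against 54% of all genes. Here 14 were higher (29.2% of all genes) and 4 were lower (24.8%). Both counts of higher genes include Hoxa9, Hoxb13 and Hoxc13, which entered through the later days and could only be called upward. The median log2 change of the 29 genes was 1.09 at day 3 and 0.62 at day 9, beside 0.066 and 0.044 for all genes tested. By size alone, with no test, 8 of 28 Hox genes were higher by 2-fold or more at day 3 than at day 0 in both treatments (16.6% of all genes) and 5 were lower by as much (11.8%), and at day 9 there were 10 (20.2%) and 3 (14.7%). The direction of change differed between the clusters. At day 9, HoxA had 7 genes higher and 0 lower, HoxC 5 and 0, HoxB 2 and 1, and HoxD 0 and 3. The remaining 11 genes were not past the threshold. Hoxa9, Hoxc13 and Hoxb13 are among the higher genes of HoxA, HoxC and HoxB.

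**Figure D2:**
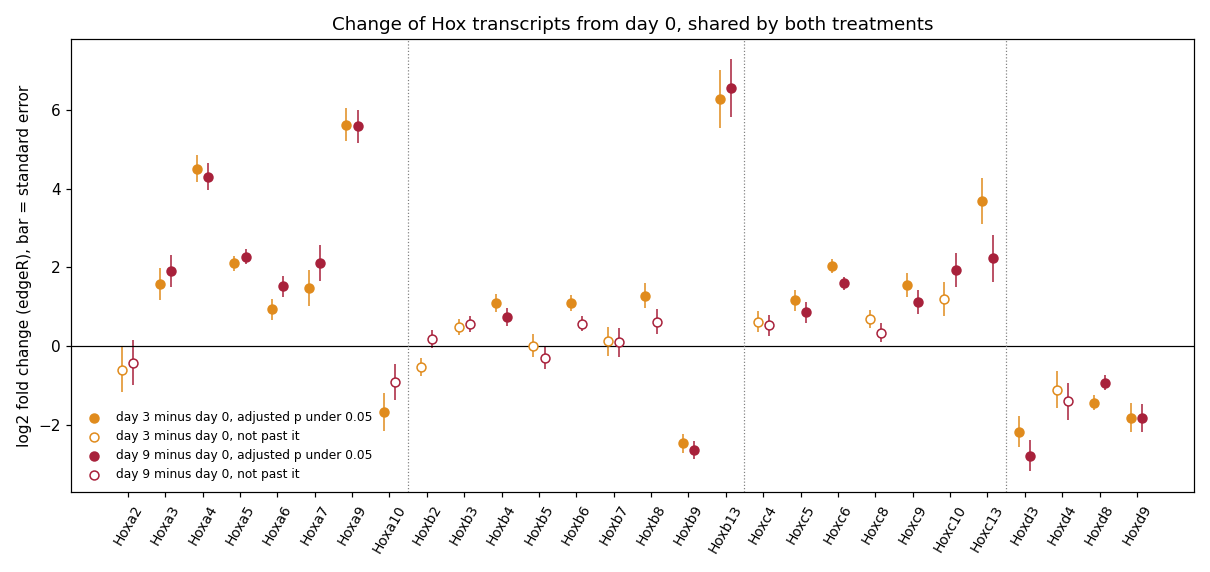
Log2 fold change of 28 tested Hox genes from day 0 to day 3 (orange) and to day 9 (red) with its standard error (edgeR, all 6 libraries, treatment as a block), filled where the adjusted p was under 0.05. From left to right the dotted lines part HoxA, HoxB, HoxC and HoxD, and the 4 HoxD genes lie below 0 whereas the 7 HoxC genes lie above it.

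These calls rested on few libraries. Hoxa4, Hoxa5, Hoxa9, Hoxb9 and Hoxc6 kept their call at both days in all 10 alternatives (other scaling, no filter, DESeq2, no treatment term, each library left out), and Hoxb13 kept it at day 9. Without the FGF8 library of day 3, the day 3 calls came down to 4 higher and 1 lower, and without the untreated one to 6 and 2. Without either library of day 9, the day 3 calls came to 7 higher and 4 lower. Leaving out the FGF8 library of day 9 left 5 higher and 1 lower at day 9, and leaving out the untreated one left 6 and 1. Without either library of day 3 there were 9 higher and 4 lower at day 9. At day 9 the calls of Hoxb4, Hoxc5, Hoxc9 and Hoxc10 were lost in 6, 7, 5 and 4 of the 10 alternatives. Every member called kept its direction in the 10 alternatives.

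In the HoxA cluster, the described genes from Hoxa3 to Hoxa9 rose, while the neighbours of Hoxa9 at the posterior side stayed low. Hoxa4, which acts in the cervical region, had 38.2, 561 and 542 normalized counts at days 0, 3 and 9 in untreated cells and 33.3, 1075 and 881 in FGF8-pretreated cells. All 4 libraries of the later days lay above both day 0 libraries, by 14.7-fold and 14.2-fold in untreated and by 32.3-fold and 26.5-fold in FGF8-pretreated cells. The share of all genes separated in this way was not counted. Here and below, such separation is not read as particular to Hox genes. The shared log2 change was 4.50 ± 0.35 (SE, adjusted p = 0.00305) at day 3 and 4.30 ± 0.34 (SE, adjusted p = 0.00203) at day 9 with edgeR. Hoxa9, which patterns more posterior segments and is active in blood progenitors, had 5.88, 206 and 281 normalized counts at days 0, 3 and 9 in untreated cells and 7.68, 475 and 344 in FGF8-pretreated cells. Its day 0 values rested on 4 and 6 counts, and every later library exceeded them, with a log2 change of 5.63 ± 0.43 (SE, adjusted p = 0.00305) at day 3 and 5.58 ± 0.43 (SE, adjusted p = 0.00193) at day 9.

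Hoxa5, which patterns the neck and lung and has been tied to fat cell formation, had 119, 485 and 569 normalized counts at days 0, 3 and 9 in untreated cells and 183, 759 and 851 in FGF8-pretreated cells. The groups did not overlap between day 0 and the later days, and within each day the FGF8 library was the higher one. Its log2 change was 2.10 ± 0.19 (SE, adjusted p = 0.00338) at day 3 and 2.28 ± 0.19 (SE, adjusted p = 0.00207) at day 9. Hoxa3, Hoxa6 and Hoxa7 rose by less. Hoxa3, which shapes the pharyngeal arches, changed by 1.58 and 1.91 on the log2 scale, Hoxa6 by 0.93 and 1.52, and Hoxa7 by 1.47 and 2.12, with adjusted p from 0.00998 to 0.0484. Their calls of day 3 were lost in 4, 6 and 7 of 10 alternatives, and those of day 9 in 2, 2 and 3.

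Hoxa10 and Hoxa2 went otherwise. Hoxa10, the gene beside Hoxa9 on its posterior side, had 41.1, 10.2 and 27 normalized counts at days 0, 3 and 9 in untreated cells and 42.2, 14 and 16.3 in FGF8-pretreated cells. It fell at day 3, by 1.68 ± 0.49 on the log2 scale (SE, adjusted p = 0.0423), in a call that rested on 8 to 33 counts and was lost in 7 of 10 alternatives. At day 9 its value was -0.91 ± 0.46 (SE, adjusted p = 0.151). Hoxa2, which sets the identity of the arch that forms the hyoid, had 459.8, 167 and 174 normalized counts at days 0, 3 and 9 in untreated cells and 160.0, 211 and 258 in FGF8-pretreated cells. In untreated cells the later values were lower, and in FGF8-pretreated cells they were higher, so that the shared change did not pass the test (-0.59 ± 0.58 (SE, adjusted p = 0.432) and -0.42 ± 0.58 (SE, adjusted p = 0.571)).

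Promoters of 22 of the 39 Hox genes were found in the RefSeq promoter set (24 promoters, GRCm39), each running from 250 bases before the start to 50 bases after it. Hoxa5 and Hoxa9 are shown as members that rose from day 0 in all alternatives, and Hoxa10 as the neighbour of Hoxa9 that did not. Capitals mark matches, on either strand, to the CCAAT box, the GC box GGGCGG, the TATA box TATAAA, the homeodomain core TAATTA, the Hox and Pbx motif TGATNNAT or the Meis motif TGACAG, and matches of different motifs can share bases.
Hoxa5 (chr6:52181518-52181817, minus strand): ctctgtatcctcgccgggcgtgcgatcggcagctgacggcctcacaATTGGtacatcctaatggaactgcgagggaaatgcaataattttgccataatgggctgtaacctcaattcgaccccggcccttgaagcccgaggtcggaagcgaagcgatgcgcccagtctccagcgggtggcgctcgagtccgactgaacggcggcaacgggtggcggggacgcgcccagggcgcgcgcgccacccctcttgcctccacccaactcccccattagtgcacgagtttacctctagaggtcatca
Hoxa9 (chr6:52204301-52204600, minus strand): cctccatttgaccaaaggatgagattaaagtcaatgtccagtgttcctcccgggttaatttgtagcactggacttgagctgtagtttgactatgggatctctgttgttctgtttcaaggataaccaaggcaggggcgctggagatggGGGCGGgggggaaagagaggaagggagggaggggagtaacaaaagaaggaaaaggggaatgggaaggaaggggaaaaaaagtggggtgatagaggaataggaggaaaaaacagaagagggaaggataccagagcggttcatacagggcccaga
Hoxa10 (chr6:52217785-52218084, minus strand): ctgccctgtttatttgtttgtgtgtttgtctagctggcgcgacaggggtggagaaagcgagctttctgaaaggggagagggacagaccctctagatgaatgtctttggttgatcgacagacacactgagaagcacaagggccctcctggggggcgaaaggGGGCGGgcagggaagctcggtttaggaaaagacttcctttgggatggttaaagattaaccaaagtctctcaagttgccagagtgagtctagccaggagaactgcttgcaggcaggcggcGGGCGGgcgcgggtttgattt
Hoxa5 held 1 CCAAT box, Hoxa9 held 1 GC box, and the first of 2 listed promoters of Hoxa10 held 2 GC boxes. The second promoter of Hoxa10, not shown, held 1 CCAAT box, 1 TATA box and 0 GC boxes. Across the 24 Hox promoters, 15 held the CCAAT box, 10 the GC box, 4 the TATA box and 4 the Hox and Pbx motif, where 37.4%, 35.7%, 13.6% and 8.85% of all 32851 promoters did. The homeodomain core and the Meis motif were in 2 Hox promoters each, and in 5.29% and 19.2% of all. Hox promoters had a median GC content of 57.6% and 14.5 CpG, beside 52.7% and 7 for all promoters. A match describes the letters of this window, not a bound site.

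In the HoxB cluster the most abundant gene of day 0 fell, and a gene near 0 counts at day 0 rose. Hoxb9 had 2472, 477 and 339 normalized counts at days 0, 3 and 9 in untreated cells and 2595, 394 and 452 in FGF8-pretreated cells. Both day 0 libraries lay above all 4 later ones, by 7.29-fold at day 9 in untreated and 5.74-fold in FGF8-pretreated cells, and the shared log2 change was -2.47 ± 0.24 (SE, adjusted p = 0.00385) at day 3 and -2.64 ± 0.24 (SE, adjusted p = 0.00241) at day 9. Hoxb13, a posterior gene known from the tail region and the prostate, had 0, 35.6 and 53.2 normalized counts at days 0, 3 and 9 in untreated cells and 1.28, 81.4 and 83.7 in FGF8-pretreated cells. Its day 0 values rested on 0 counts without and 1 count with FGF8. Set against a floor of 3 counts in the untreated day 0 library, the untreated level of day 3 was at least 8.09-fold higher, and that of day 9 at least 12.1-fold higher. Both changes passed the test (adjusted p = 0.00525 and 0.00342, edgeR).

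Hoxb2 to Hoxb8, which lie on the anterior side of Hoxb9, moved less. Hoxb8, which acts in the thoracic region and in myeloid cells, had 661, 1008 and 809 normalized counts at days 0, 3 and 9 in untreated cells and 437, 1556 and 835 in FGF8-pretreated cells. The day 3 library was the highest in both treatments, and the log2 change was 1.28 ± 0.32 (SE, adjusted p = 0.0279) at day 3 and 0.62 ± 0.31 (SE, adjusted p = 0.147) at day 9. Hoxb4, Hoxb6 and Hoxb8 passed the test upward at day 3, and of them Hoxb4 alone at day 9 (0.74 ± 0.23 (SE, adjusted p = 0.045)). Hoxb3 stayed between 545 and 906 normalized counts in the 6 libraries. For Hoxb2, Hoxb3, Hoxb5 and Hoxb7 neither change from day 0 passed the test, with log2 values from -0.53 (Hoxb2, day 3) to 0.57 (Hoxb3, day 9). Hoxb7 went from 199.8, 322 and 285 in untreated cells, above its start at both later days, and from 338, 234 and 272 in FGF8-pretreated cells, below its start at both.

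In the HoxC cluster no gene fell by the test. Hoxc6, which acts in the thoracic region and mammary gland, had 326, 1319.8 and 939.8 normalized counts at days 0, 3 and 9 in untreated cells and 275, 1042 and 823 in FGF8-pretreated cells. Every later library exceeded both day 0 libraries, and the peak was at day 3 in both treatments. The log2 change was 2.03 ± 0.17 (SE, adjusted p = 0.0032) at day 3 and 1.59 ± 0.17 (SE, adjusted p = 0.00314) at day 9. Hoxc9, known from white depots and the thoracic cord, had 82.3, 291 and 207 normalized counts at days 0, 3 and 9 in untreated cells and 105, 240.1 and 193 in FGF8-pretreated cells, with a log2 change of 1.56 ± 0.31 (SE, adjusted p = 0.0155) and 1.13 ± 0.30 (SE, adjusted p = 0.0298). Hoxc10, tied to white rather than brown fat, had 19.1, 53.5 and 104 normalized counts at days 0, 3 and 9 in untreated cells and 30.7, 56.9 and 79.7 in FGF8-pretreated cells. All 4 later libraries exceeded the 2 of day 0, and the change passed the test at day 9 (1.92 ± 0.43 (SE, adjusted p = 0.0181)) and not at day 3 (1.21 ± 0.43 (SE, adjusted p = 0.0729)).

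Hoxc13, a gene of hair and nail formation, had 5.88, 127 and 49 normalized counts at days 0, 3 and 9 in untreated cells and 6.4, 46.3 and 16.3 in FGF8-pretreated cells. It peaked at day 3 in both treatments and passed the test at day 3 (3.68 ± 0.59 (SE, adjusted p = 0.00968)) and day 9 (2.23 ± 0.60 (SE, adjusted p = 0.0297)), from 4 and 5 counts at day 0. The call of day 9 was lost in 6 of 10 alternatives, and in FGF8-pretreated cells the counting interval of that change held 0 (1.22 (95% counting interval -0.11 to 3.11)). Hoxc5 passed the test at both days as well (log2 change 1.17 and 0.86). Hoxc4 and Hoxc8 did not pass it. Hoxc8, tied to white fat, had 288, 375 and 318 normalized counts at days 0, 3 and 9 in untreated cells and 259, 475 and 359 in FGF8-pretreated cells, with log2 values of 0.69 ± 0.23 (SE, adjusted p = 0.0629) and 0.34 ± 0.23 (SE, adjusted p = 0.26).

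All 4 described HoxD genes had lower values after day 0, and 3 of them fell by the test. Hoxd8, the most abundant of them per kb, had 1122, 383 and 499.7 normalized counts at days 0, 3 and 9 in untreated cells and 1450.5, 533 and 845 in FGF8-pretreated cells. Both day 0 libraries exceeded the 4 later ones, and the log2 change was -1.44 ± 0.19 (SE, adjusted p = 0.00656) at day 3 and -0.93 ± 0.19 (SE, adjusted p = 0.0137) at day 9. Hoxd9, which takes part in limb and lumbar patterning, had 91.1, 26.7 and 24.1 normalized counts at days 0, 3 and 9 in untreated cells and 164, 41.4 and 46.3 in FGF8-pretreated cells, a log2 change of -1.82 ± 0.36 (SE, adjusted p = 0.016) and -1.82 ± 0.35 (SE, adjusted p = 0.0125). Hoxd3, which shapes the upper neck vertebrae, had 129, 30.5 and 16.3 normalized counts at days 0, 3 and 9 in untreated cells and 115, 21.8 and 17.9 in FGF8-pretreated cells, a log2 change of -2.17 ± 0.39 (SE, adjusted p = 0.0129) and -2.78 ± 0.40 (SE, adjusted p = 0.00587). The groups of day 0 and of the later days did not overlap for any of these 3 genes, a separation whose share over all genes was not counted. Hoxd4 had 361, 95.5 and 90.1 normalized counts at days 0, 3 and 9 in untreated cells and 183, 145 and 109 in FGF8-pretreated cells. Its drop was larger in untreated cells (log2 -1.99 (95% counting interval -2.32 to -1.69) at day 9) than in FGF8-pretreated cells (-0.74 (95% counting interval -1.10 to -0.40)), and the shared change missed the threshold (-1.40 ± 0.47 (SE, adjusted p = 0.0553)). The difference between treatments was not tested.

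The promoters of the 3 HoxD genes that fell are given in the same way, with the same motifs in capitals.
Hoxd3 (chr2:74542087-74542386, plus strand): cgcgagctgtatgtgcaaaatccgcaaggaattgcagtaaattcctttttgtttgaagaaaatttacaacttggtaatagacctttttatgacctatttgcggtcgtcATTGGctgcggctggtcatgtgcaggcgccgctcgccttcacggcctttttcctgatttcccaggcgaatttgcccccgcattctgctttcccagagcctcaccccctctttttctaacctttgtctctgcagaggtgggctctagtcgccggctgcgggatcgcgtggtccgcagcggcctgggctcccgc
Hoxd8 (chr2:74534709-74535008, plus strand): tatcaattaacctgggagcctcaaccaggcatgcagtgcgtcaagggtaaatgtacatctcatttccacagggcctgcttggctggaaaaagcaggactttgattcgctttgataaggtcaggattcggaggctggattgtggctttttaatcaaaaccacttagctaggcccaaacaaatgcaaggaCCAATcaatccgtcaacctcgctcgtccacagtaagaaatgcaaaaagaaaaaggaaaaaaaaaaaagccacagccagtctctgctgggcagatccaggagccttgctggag
Hoxd9 (chr2:74527857-74528156, plus strand): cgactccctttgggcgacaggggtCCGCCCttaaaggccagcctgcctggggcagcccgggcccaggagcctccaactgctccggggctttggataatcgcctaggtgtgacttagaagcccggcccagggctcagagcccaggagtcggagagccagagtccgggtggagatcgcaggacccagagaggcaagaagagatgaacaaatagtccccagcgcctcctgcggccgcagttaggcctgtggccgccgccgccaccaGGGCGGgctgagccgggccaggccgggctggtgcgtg
Hoxd3 and Hoxd8 held 1 CCAAT box each, and Hoxd9 held 2 GC boxes, 1 on each strand. None of these 3 windows held a match to the other motifs searched.

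Paralogs of 1 group went in opposite directions. In group 9, Hoxa9 and Hoxc9 rose at day 9 and Hoxb9 and Hoxd9 fell. In group 3, Hoxa3 rose, Hoxd3 fell and Hoxb3 did not pass the test. Groups 5, 6 and 7 had 5 of 8 members higher and 0 lower, and group 8 had only Hoxd8 past the threshold, downward.

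Summed per kb of exon, the make-up of the Hox transcripts shifted from HoxB, where Hoxb9 fell, and HoxD to HoxA and HoxC. HoxA held 12.2% of the Hox level at day 0, 25.4% at day 3 and 33.1% at day 9 in untreated cells, and 11.5%, 35.7% and 39.7% in FGF8-pretreated cells. HoxD went the other way, from 17.1% to 4.64% and 6.03% and from 19.8% to 5.5% and 7.95%. HoxB held 55.5%, 39.5% and 35.4% in untreated and 56.3%, 36.7% and 32.9% in FGF8-pretreated cells, and HoxC 15.3%, 30.5% and 25.5% and 12.4%, 22% and 19.5%. Of the HoxB level per kb in untreated cells, Hoxb9 was 913 of 1829 at day 0 and 125 of 1264 at day 9. In FGF8-pretreated cells Hoxb9 was 959 of 1840 and 167 of 1438. It was the 1 HoxB gene lower by the test at day 9, where 2 were higher. HoxA went from the lowest share at day 0 to the largest at day 9 in FGF8-pretreated cells, and from the lowest to the second, after HoxB, in untreated cells. The posterior groups 9 to 13 lost share through Hoxb9, from 30.6% to 10.4% in untreated and from 33.8% to 9.35% in FGF8-pretreated cells, and the central groups 4 to 8 gained, from 56.1% to 78.3% and from 56.4% to 78%. Hoxb9 made up 913 of the posterior 1010 per kb at day 0 and 125 of 371 at day 9 in untreated cells. In FGF8-pretreated cells it made up 959 of 1104 and 167 of 409. Among the other posterior genes, Hoxa9, Hoxb13, Hoxc9, Hoxc10 and Hoxc13 were higher at day 9 by the test and Hoxd9 was lower. Of these, Hoxa9, Hoxb13 and Hoxc13 had entered the test through the later days and could only be called upward. The anterior groups 1 to 3 stayed between 8.62% and 13.3%. With 1 library per condition these shares have no test.

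The summed level itself was 3298, 3854 and 3569.7 normalized counts per kb at days 0, 3 and 9 in untreated cells and 3268, 4590.1 and 4375 in FGF8-pretreated cells. As a share of all counts, Hox transcripts were 0.0376%, 0.0395% and 0.0328% in untreated and 0.0378%, 0.0428% and 0.0387% in FGF8-pretreated cells. Between days 0 and 9 in untreated cells the level per kb was higher, the sum without division by length changed from 9070.2 to 8978 normalized counts, and the share of all counts was lower. The leading gene changed in both treatments. Hoxb9 led at day 0, and at day 9 Hoxc6 led in untreated cells with 10.4% of the Hox level and Hoxa4 in FGF8-pretreated cells with 12.6%. In bulk samples, fewer cells of a type and less RNA per cell cannot be told apart.

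**Figure D3:**
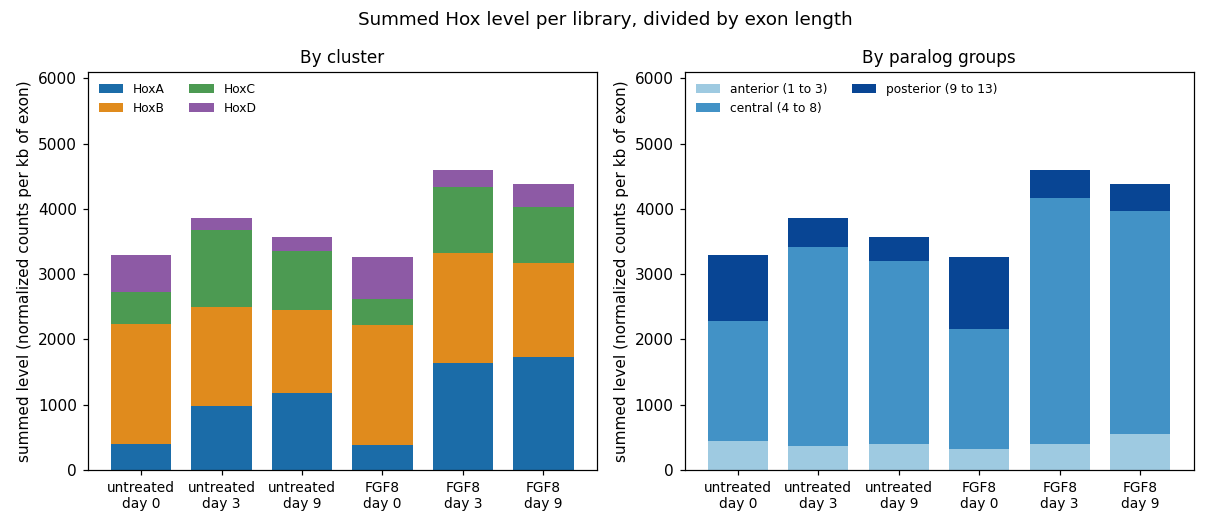
Summed level of the 39 Hox genes in each library (normalized counts per kb of exon), stacked by cluster on the left and by paralog groups on the right, with 1 bar per library and no error since there is 1 library per condition. In both treatments the HoxA share grows and the HoxD and posterior shares shrink after day 0. Most of the posterior level at day 0 is Hoxb9.

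Between day 3 and day 9, 0 of the 29 Hox genes passed the test with edgeR, where 0.0686% of all genes did. At an unadjusted p under 0.05 there were 5 of 29, beside 21.3% of all genes, and DESeq2 called 0, beside 9.07% of all genes. Hoxc13 was the only Hox gene at least 2-fold lower at day 9 than at day 3 in both treatments (2.35% of all genes), and 0 were at least 2-fold higher (5.07%). Hoxc13 changed by -1.36 (95% counting interval -1.84 to -0.92) in untreated and -1.46 (95% counting interval -2.31 to -0.77) in FGF8-pretreated cells on the log2 scale, and by -1.45 ± 0.48 (SE, adjusted p = 0.191) in the shared test. When 1 day 0 library was left out, Hoxc13 and Hoxb8 passed the test downward. Their log2 changes were -1.46 and -0.64 without the untreated library of day 0, where 10.3% of all genes passed downward. The same 2 genes passed without the FGF8 library of day 0 (10%). These 2 fits share the libraries of days 3 and 9 that they compare, so they are not separate checks. Hoxb2 was higher without the untreated library of day 0 only (log2 change 0.71, adjusted p = 0.0476, 10.8% of all genes).

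The comparison of treatments asked whether FGF8 pretreatment left the Hox pattern changed. At day 0, Hoxa7 was at least 2-fold higher (7.27% of all genes) and Hoxa2 at least 2-fold lower (10.8%), among the 25 Hox genes whose 2 libraries averaged 20 or more. Hoxa7, a thoracic gene, had 22 normalized counts without and 76.8 with FGF8, from 15 and 60 counts, a log2 change of 1.76 (95% counting interval 0.97 to 2.72). At days 3 and 9 its difference was 0.80 and 0.33. For Hoxa2 the values were 459.8 and 160.0, a log2 change of -1.52 (95% counting interval -1.83 to -1.22), and at the later days the FGF8 library was the higher one.

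At day 3, Hoxa9 and Hoxb13 were at least 2-fold higher after FGF8 (3.8% of all genes) and Hoxc13 was at least 2-fold lower (12.1%), among 28 Hox genes. The log2 change of Hoxa9 was 1.20 (95% counting interval 0.95 to 1.46), that of Hoxb13 1.17 (95% counting interval 0.59 to 1.84) and that of Hoxc13 -1.44 (95% counting interval -1.93 to -1.0). At day 9, 0 were at least 2-fold higher (1.12%) and Hoxc13 alone was at least 2-fold lower (8.74%), by -1.53 (95% counting interval -2.39 to -0.86). Hoxc13 was the one member past 2-fold at both later days, at 127 and 46.3 normalized counts at day 3 and 49 and 16.3 at day 9. With 1 library per treatment and day, none of these differences can be set against the spread between cultures.

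In size, the FGF8 differences of the Hox genes were near those of all genes at days 0 and 3. For days 0, 3 and 9 the median absolute log2 difference came to 0.43, 0.40 and 0.39, beside 0.39, 0.41 and 0.27 for all genes. The HoxA genes stood on the higher side after differentiation, 8 of 8 at day 3 (median log2 difference 0.68) and 8 of 9 at day 9 (0.45), with Hoxa10 as the exception. At day 0 there were 4 of 7 (0.038). Of all genes, 54.1%, 55.5% and 59.2% stood on the higher side at days 0, 3 and 9. HoxB had 5 of 9 on the higher side at day 3 (median 0.065) and 7 of 9 at day 9 (0.26), HoxD 3 of 4 (0.54) and 3 of 3 (0.76), and HoxC 3 of 7 (-0.28) and 2 of 7 (-0.10). Hoxa5 was above 0 with its counting interval at all 3 days, with 0.62, 0.65 and 0.58. So were Hoxa6 (0.68, 0.52 and 0.42), Hoxa7 and Hoxd8 (0.37, 0.48 and 0.76). The share of all genes above 0 by this interval at all 3 days was not counted, so these are not read as particular to Hox genes. Genes of 1 cluster are not independent of each other.

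**Figure D4:**
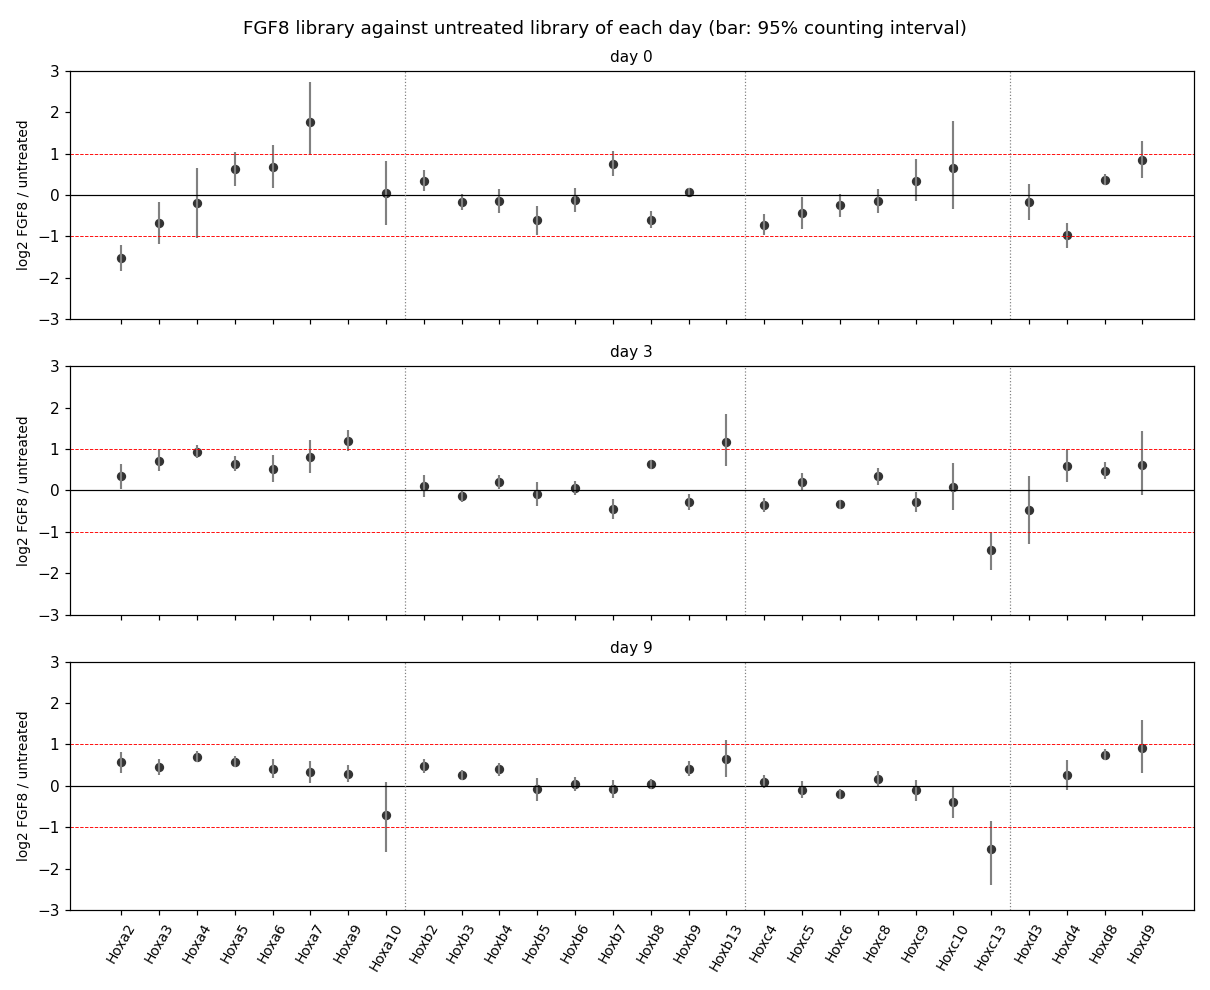
Log2 difference between the FGF8 and the untreated library at day 0, day 3 and day 9 for Hox genes averaging 20 or more in the pair, with the 95% counting interval as bars and dashed lines at 2-fold. At days 3 and 9 the HoxA genes lie above 0 except Hoxa10 at day 9, and Hoxc13 lies lowest.

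For a response common to all days, the days stood in place of replicates. With edgeR, 0 of 29 Hox genes passed the test, where 1.27% of all genes did. At an unadjusted p under 0.05 there were 4 of 29 Hox genes, beside 23.3% of all genes, and DESeq2 called 1, Hoxa5, beside 12.3% of all genes. The shared log2 difference was 0.60 ± 0.15 (SE, adjusted p = 0.123) for Hoxa5, 0.51 ± 0.15 (SE, adjusted p = 0.153) for Hoxd8 and -1.24 ± 0.44 (SE, adjusted p = 0.187) for Hoxc13. The median over the 29 genes was 0.048, beside 0.040 for all genes. Without either library of day 0, the fit compares the treatments at days 3 and 9 alone. Hoxa4, Hoxa5 and Hoxd8 were then higher and Hoxc13 lower, with log2 differences of 0.80, 0.60, 0.61 and -1.53 and adjusted p = 0.0131, 0.0443, 0.0432 and 0.022 without the untreated library, where 4.76% of all genes were higher and 11.6% lower. Without the FGF8 library of day 0 the same 4 genes were called (4.25% of all genes higher, 11.3% lower). Both fits compare the same libraries of days 3 and 9, so the second is no separate check. In the fit of all days, markers of cell type also moved with FGF8. With edgeR, 3 of 7 tested preadipocyte markers (Dlk1, Pdgfra and Pdgfrb) were lower and 0 higher, with a median of -1.44 on the log2 scale. Of 3 tested endothelial markers, Tek alone was lower (median -2.80). At day 0, Thy1 and Pi16 were higher with FGF8, from 2773 to 4427 and from 69.0 to 542 normalized counts. The other listed preadipocyte markers were lower at day 0, and Thy1 and Pi16 were lower at days 3 and 9. Of 10 adipocyte markers, 0 passed the test (median 0.34). The 4 tested Schwann and neural crest markers had a median of -1.53, with 0 past the threshold. Their part in the FGF8 differences of the Hox genes was not tested.

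The other 10 Hox genes were at or near 0. Hoxb1 and Hoxd12 had 0 counts in all 6 libraries, which allows up to 3 counts in each by counting error. Hoxa11, Hoxc11, Hoxd1, Hoxd10 and Hoxd13 had at most 2 counts in any library and Hoxd11 at most 4. Hoxa13 reached 10 counts and Hoxc12 reached 13, each in the untreated library of day 9. Hoxc12, the neighbour of Hoxc13, had 0 counts in both day 0 libraries and 9, 13, 9 and 3 in the 4 later ones. No direction is read from these values.

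Some Hox counts may hold reads of overlapping transcripts, since the strand setting of the counting is not given in the sources used here. Hoxb3os shares 51.5% of the exon bases of Hoxb3 and 29.7% of those of Hoxb2, and Hoxb5os 30.8% of those of Hoxb6. Smaller antisense overlaps include 20.3% for Hoxa7, 15.9% for Hoxa3, 15% for Hoxd8 and 13.3% for Hoxc9. Hotairm1 shares 14.5% of the exon bases of Hoxa2, and Hoxd3os1 and Haglr together 5.38% of those of Hoxd3. Hoxc5 and Hoxc10 share 166 bases of exon on the same strand, and Hoxd3 and Hoxd4 share 388. No exon of another gene of the count data overlaps Hoxa4, Hoxa5, Hoxa10, Hoxb13, Hoxc6, Hoxc13 or Hoxd9 in this annotation. Annotated genes outside the count data were not searched. Of 18 listed non-coding RNAs of the clusters, 8 were tested, and 2 were higher and 3 lower at day 3 and at day 9. Hotairm1, a non-coding RNA of HoxA, had 19.1, 76.4 and 131 normalized counts in untreated and 16.6, 147 and 186 in FGF8-pretreated cells, a log2 change of 3.16 ± 0.43 (SE, adjusted p = 0.00519) at day 9. Haglr, antisense within HoxD, had 41.1, 2.55 and 0.71 and 29.4, 1.4 and 1.63, a change of -4.76 ± 0.68 (SE, adjusted p = 0.00568).

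The lists that follow are read against all genes, of which 26.2% were higher and 19.8% lower at day 3, and 29.2% and 24.8% at day 9. Of 9 genes of cofactors that bind DNA together with Hox proteins (Pbx, Meis and Pknox families), 0 were higher and 3 lower at day 3, and 1 was higher and 3 lower at day 9. Pbx3 had 845, 387 and 268 normalized counts in untreated and 1010.1, 360.1 and 264 in FGF8-pretreated cells, and the log2 change at day 9 was -1.76 ± 0.20 (SE, adjusted p = 0.00359) for Pbx3 and -1.51 ± 0.19 (SE, adjusted p = 0.0045) for Meis1. Pknox2 was the one cofactor called for FGF8 (-1.57 ± 0.15 (SE, adjusted p = 0.0429)). Of 59 other positional transcription factors, 34 were tested, and 11 were higher and 4 lower at day 3 and 10 higher and 6 lower at day 9. Zic1, a factor of brown fat and the dorsal neural tube, had 149.8, 0 and 2.13 and 136, 0 and 1.63, and Pax3, a factor of the dermomyotome, had 10.3, 429 and 292 and 20.5, 312 and 199, so that Zic1 fell and Pax3 rose in both treatments (adjusted p at day 9 = 0.00371 and 0.00396, edgeR).

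Among 30 Polycomb genes, which keep silent Hox genes silent, 6 were higher and 7 lower at day 9 (13 of 30, beside 54% of all genes), and 4 and 3 at day 3 (7 of 30, beside 46%). Among 13 Trithorax and H3K27 demethylase genes, which act against Polycomb, 3 were higher and 6 lower at day 9, and 3 and 5 at day 3. Kdm6b, which removes the Polycomb mark, had 819.6, 3221 and 3987 normalized counts in untreated and 796, 3830.5 and 4846 in FGF8-pretreated cells, a log2 change of 2.48 ± 0.17 (SE, adjusted p = 0.00177) at day 9. FGF8 called 0 of either list with edgeR. Of 16 tested genes that lie beside the clusters, 3 were higher and 2 lower at day 9 and 1 and 1 at day 3. Hibadh, beside HoxA, rose by 2.05 ± 0.25 (SE, adjusted p = 0.0043) and Lnpk, beside HoxD, changed by -1.0 ± 0.23 (SE, adjusted p = 0.0184).

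Markers of cell type moved with the days. All 10 adipocyte markers were higher at day 9, 9 of them at day 3, and their summed level went from 8985 to 396760 and 666805 normalized counts in untreated and from 3874 to 685925 and 775348 in FGF8-pretreated cells. Of 7 tested preadipocyte markers (8 listed), 5 were lower at day 3 and 6 at day 9, and the sum went from 133133 to 39318 and 31047 and from 34240 to 10726 and 7148. Macrophage markers summed to 139 to 313 normalized counts with Adgre1 at 0, T and B cell markers to at most 6.39 with Ms4a1 at 0, and endothelial markers went from 1635 to 204 in untreated and from 75.5 to 37.4 in FGF8-pretreated cells. The endothelial sum came mostly from Kdr and Tek, and Pecam1, Cdh5, Vwf and Emcn had at most 12.8 normalized counts in any library. Muscle markers reached 1178 through Des, with Myod1, Myf5 and Myh3 at 0. Schwann and neural crest markers ranged from 163 to 7639 through Ngfr and S100b, and epithelial markers reached 154 in the FGF8 library of day 0 through Epcam and summed to at most 14 elsewhere. Their part in the Hox differences between the days was not tested.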

How the data were processed

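The 6 libraries were made from total RNA of the cells, 1 for each of 2 treatments and 3 days. Reads were trimmed with Trim Galore, aligned with HISAT2 to mm39 (per the labels; versions are not given in the sources used here) and counted per gene with featureCounts, and the authors deposited the raw counts of each library without normalization. Samples were grouped by their titles. The members and gene lists were chosen with earlier results of these data known. Results for some single genes are not reported here.

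Counts were divided by DESeq2 (1.42.0) median-of-ratios size factors over the 6 libraries. Differences between 2 libraries are on the log2(normalized count + 1) scale with a 95% Clopper-Pearson interval of the ratio of both counts, which covers counting error only, as does the floor of 3 counts. The 2-fold rule was applied where the pair averaged 20 or more normalized counts. Shared effects were tested with edgeR (4.0.16; quasi-likelihood, TMM, filterByExpr, terms for day and treatment, 2 residual degrees of freedom, Benjamini-Hochberg over 14569 genes, adjusted p under 0.05), and the fit was tested on simulated data. Levels per kb used exon lengths of GENCODE M39, in which 23897 of 26264 symbols were found. Genes described by value averaged 20 or more over the 6 libraries. Of the other lists, genes named with values were among the 3 per direction with the smallest p. Promoters came from RefSeq (GRCm39). Depth of 16403254 to 38551551 counts makes intervals wide for transcripts of few counts. Alternatives were TMM, total-count and within-pair scaling, pseudocounts of 0.5 and 5, other filters and fold rules, DESeq2's Wald test, a model without the other term, leaving out each library, and other lengths for the levels. Versions were 4.3.3 for R, 3.11.15 for Python, 2.3.3 for pandas and 1.17.1 for scipy.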

Additional observations from a re-analysis of the deposited data

Results flagged for a closer look

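For 7 Hox genes the FGF8 library lay above the untreated one on 1 day and below it on another, each time beyond the counting interval. The share of all genes that did so was not counted, so this is not read as a trait of Hox genes. The difference between days was not tested, since each day has 1 library per treatment. Hoxa2 changed by -1.52 on the log2 scale at day 0, by 0.34 at day 3 and by 0.56 at day 9. Hoxa3 had the same order of signs with -0.67, 0.72 and 0.45. Hoxb8 and Hoxd4 were lower at day 0 (-0.60 and -0.98) and higher at day 3 (0.63 and 0.59). For Hoxb7 the values were 0.76 at day 0 and -0.46 at day 3. Hoxb3 and Hoxb9 differed in sign between day 3 (-0.15 and -0.28) and day 9 (0.26 and 0.41). All 7 kept these signs under the other scalings and pseudocounts tried.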

How the results depend on the processing

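No paired analysis was possible because the labels give no replicate numbers and each condition has 1 library. Total-count scaling moved the median of all genes between day 0 and day 9 by -0.18 in untreated and -0.28 in FGF8-pretreated cells on the log2 scale, and TMM moved it by at most 0.10 in any pair. The cause of the changes below was not tested beyond what each setting itself does. In the FGF8 pairs, Hox genes at least 2-fold higher at day 0 went from 1 to 0 with a mean of at least 100, 5 with no filter, 6 with a 1.5-fold and 0 with a 4-fold rule, and those lower from 1 to 2 with size factors of the pair, 3 with no filter, 6 with 1.5-fold and 0 with 4-fold. At day 3 those higher went from 2 to 1 (mean of at least 100), 9 (1.5-fold) and 0 (4-fold), and those lower from 1 to 0 (mean of at least 100), 2 (no filter) and 0 (4-fold). At day 9 those higher went from 0 to 5 (1.5-fold), and those lower from 1 to 0 (mean of at least 100 and 4-fold), 4 (no filter) and 2 (1.5-fold). The counts at 2-fold in both treatments between days 0 and 3 went from 8 higher to 5 (mean of at least 100), 15 (1.5-fold) and 4 (4-fold), and from 5 lower to 2 (mean of at least 100 and 4-fold). Between days 0 and 9 they went from 10 higher to 6 (mean of at least 100) and 5 (4-fold), and from 3 lower to 5 (total counts), 1 (mean of at least 100) and 6 (1.5-fold). Between days 3 and 9 they went from 0 higher to 1 with no filter and from 1 lower to 0 with a mean of at least 100 and with 4-fold. In the edgeR test, leaving out each library in turn gave 4 to 17 Hox genes higher and 1 to 6 lower at day 3, 5 to 16 higher and 1 to 6 lower at day 9, 0 to 1 higher and 0 to 2 lower between days 3 and 9, and 0 to 3 higher and 0 to 1 lower for the shared FGF8 effect. DESeq2 called 1 Hox gene higher for FGF8, Hoxa5. The log2 change of the summed level from day 0 to day 9 in untreated and FGF8-pretreated cells was 1.56 and 2.20 for HoxA, -0.53 and -0.36 for HoxB, 0.85 and 1.08 for HoxC, and -1.39 and -0.89 for HoxD. With total counts it was 1.38 and 1.92, -0.72 and -0.63, 0.67 and 0.80, and -1.57 and -1.17. Without division by length HoxA in untreated cells was at 1.41 and HoxB in FGF8-pretreated cells at -0.29, with TMM the latter was at -0.27, and with canonical transcript lengths, an alternative chosen after seeing the data, HoxB was at -0.42 and -0.24. For the anterior groups in untreated cells the change turned from -0.11 to 0.03 without division by length and with canonical lengths, and was -0.29 with total counts (0.51 in FGF8-pretreated cells). The central groups came to 0.41 and 0.61 with total counts, 0.40 and 0.72 without division by length, and 0.98 in FGF8-pretreated cells with TMM. The posterior groups came to -1.63 and -1.71 with total counts, -1.30 and -1.26 without division by length, and -1.28 and -1.26 with canonical lengths.

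Depth limits the 10 Hox genes near 0 counts and the day 0 values of Hoxa9, Hoxb13 and Hoxc13. With no repeated library of a condition, the spread between cultures is unknown, and the test takes a response that differs between days or treatments as error.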
